A study of Homo sapiens with 95 samples.

Results

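NEAT1 and MALAT1 are neighbouring long noncoding RNAs that are transcribed from chromosome 11 and stay in the nucleus. They are 2 of the 27978 genes counted in 95 sparse full length (SFL) RNA-seq samples of AALE, a human bronchial epithelial line that was immortalized. Both were chosen by name, and the pair was put forward because the share of reads that NEAT1 took differed widely between these samples. The spread of NEAT1 is therefore described here with no test, while MALAT1 is tested.

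SFL is a pooled, barcoded and shallow RNA-seq of total RNA from which ribosomal RNA was depleted, with reads over the whole transcript. AALE cells carried 1 of 8 genotypic perturbations. FAT1 and CDKN2A were knocked out with CRISPR, and the control of both, GFP, received the same Cas9-EGFP plasmid with no guide. NRF2, FGFR1, NRG1 and PIK3CA were overexpressed, and their control, HcRed, carried the empty vector. Each line was given cigarette smoke condensate (CSC, 24 μg/ml), benzo[a]pyrene (BaP, 173 μM), the tobacco nitrosamine NNK (490 μM) or the vehicle, DMSO. All 32 combinations have 3 samples, except FGFR1 under CSC, which has replicates 2 and 3 only. The exposure time and whether a line is a single clone are not given in the sources used here. The study calls the replicates biological. Whether they were separate cultures is not given in the sources used here, so p-values measure the spread between these samples.

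NEAT1 is the scaffold of paraspeckles, nuclear bodies in which it binds the proteins SFPQ, NONO and PSPC1 and other RNA-binding proteins. It is made as a short, polyadenylated transcript and as a long transcript that share a start, and only the long transcript builds a paraspeckle. MALAT1 collects in nuclear speckles, which hold SR splicing factors, and it is among the most abundant nuclear RNAs of many cell types. NEAT1 is a known transcriptional target of p53 and is known to rise under several kinds of cell stress. How AALE cells were immortalized is not given in the sources used here, and whether p53 is active in them was not tested.

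The long NEAT1 transcript and MALAT1 share an unusual way of ending. RNase P cuts each nascent RNA just 5′ of a tRNA-like fold, and the new 3′ end, which has no poly(A) tail, is protected by a triple helix between an A-rich tract and U-rich stretches upstream of it. The genome sequences around both ends (GRCh37, the assembly that hg19 denotes) are shown because these ends decide which molecules an RNA-seq method can see: a library made by rRNA depletion, unlike one primed on poly(A), does not need a tail. Capitals mark the A-rich tract and the U-rich stretches, written with T.
NEAT1, long 3′ end, chr11:65212891-65213071, plus strand: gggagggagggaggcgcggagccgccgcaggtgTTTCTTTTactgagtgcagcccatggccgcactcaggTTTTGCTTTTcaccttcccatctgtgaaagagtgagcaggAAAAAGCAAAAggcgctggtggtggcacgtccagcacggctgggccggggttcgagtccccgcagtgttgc
MALAT1, 3′ end, chr11:65273459-65273647, plus strand: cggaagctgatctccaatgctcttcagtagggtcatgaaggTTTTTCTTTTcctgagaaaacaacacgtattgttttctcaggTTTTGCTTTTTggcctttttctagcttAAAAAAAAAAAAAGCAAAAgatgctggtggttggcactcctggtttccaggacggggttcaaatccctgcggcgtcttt
The tract has 11 bases in NEAT1 (65213001 to 65213011) and 19 bases in MALAT1 (65273569 to 65273587), and both tracts end in the letters GCAAAA. The pattern searched for was AAAAA followed by any further A and then GCAAAA, on the plus strand, and the last of its 2 matches in MALAT1 is shown. The bases right after each tract belong to the tRNA-like fold. In NEAT1 the last base of the tract is the last base of the annotated gene, whereas the annotation of MALAT1 runs on past this point.
The short NEAT1 transcript ends after a polyadenylation signal, AATAAA in capitals at 65193974 to 65193979, which is shown because a poly(A)-primed method would count from here.
NEAT1, short 3′ end, chr11:65193925-65193994, plus strand: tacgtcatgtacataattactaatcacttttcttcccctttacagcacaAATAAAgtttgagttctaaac

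NEAT1 lies at chr11:65190245-65213011 on the plus strand, and MALAT1 at chr11:65265111-65275544 on the same strand, 52.1 kb away. The GENCODE annotation of GRCh37, from which these positions come, lists 9 NEAT1 transcripts. Of these, 8 end before 65193984 or less than 100 bases past it. The short transcript of 3.72 kb, which ends at 65193984, is contained in the long transcript of 22.7 kb. The deposited counts give a single value per gene and do not separate these forms. The counts were made on RefSeq gene models that are not part of the tables, so how much of the long transcript they cover is not known here. No other counted gene overlaps NEAT1. MALAT1 is overlapped by TALAM1, an antisense RNA at chr11:65266783-65274903, over 8121 of its 10434 bases (77.8%). The setting for strand is not given in the sources used here, so reads of MALAT1 and TALAM1 cannot be told apart in the overlap. TALAM1 had 0 to 18 counts per sample and 368 in all, against 26690 for MALAT1, and 9 samples had none.

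Between 287446 and 2116383 reads were counted per sample, with a median of 934235. In all 6 perturbed lines the altered gene did not overlap with its control line: CDKN2A, for example, was at 34.4 to 69.1 CPM (read counts relative to the TMM-scaled library total) in its knockout and at 77.3 to 148 CPM in GFP. The basal epithelial markers KRT5, KRT14, KRT17, TP63, ITGB4 and CDH1 were detected in every sample, and CD3E was at 0 in all of them. Of 8 markers of other cell types, COL1A1, a fibroblast collagen, ran from 4.51 to 62.2 CPM, and PTPRC, of leukocytes, was at 0 in 90 samples. The summed level of these 8 had a median of 16.8 CPM under DMSO, 34.8 under CSC, 28.0 under BaP and 32.5 under NNK, and its part in the treatment results was not tested. No pair of samples held identical counts. Library composition moved with treatment. The mean GC content of counted reads, weighted by gene, was 46.3% under DMSO (45.5 to 46.8), 47.6% under CSC (47.2 to 48.2), 47.5% under BaP (46.7 to 48.2) and 47.6% under NNK (46.9 to 48.3). The weighted exon length was 8.80 kb under DMSO and 8.57, 8.56 and 8.67 kb under CSC, BaP and NNK. NEAT1 (44.1% GC) and MALAT1 (42.04% GC) both lie below the median GC content of fitted genes (47.5%), so treatment results are also given from a fit in which the dependence of each library on GC content and on exon length was taken out, called GC-corrected below.

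By total count NEAT1 was the sixth gene, a rank of reads that takes no account of transcript length. Its counts ran from 855 to 12021 with a median of 2921, which is 0.152% to 1.04% of counted reads with a median of 0.343%. The 95% Wilson intervals of these end points, 0.145 to 0.160% and 1.01 to 1.07%, cover counting error only. The end points are the extremes of a share chosen for its spread, so these intervals are no test of that spread. In TMM-scaled CPM, a relative level used from here on, NEAT1 ran from 1576 through a median of 3437 to 10085, a 6.40-fold range. MALAT1 was lower, with 52 to 661 counts and 151 to 564 CPM (median 276), a 3.73-fold range. Per kilobase of exon in the GENCODE annotation, which may differ from the counted models, the mean level was 173 CPM for NEAT1 and 28.0 CPM for MALAT1, or 126 CPM per kb if all MALAT1 reads came from the 2313 bases outside TALAM1.

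The standard deviation of log2 CPM over the 95 samples was 0.59 for NEAT1 and 0.41 for MALAT1. Among the 5042 genes whose mean count reached 50, 97.2% varied less than NEAT1 and 85.9% less than MALAT1. The pair was put forward for the spread of the NEAT1 share over these samples, so the place of NEAT1 follows from that choice. Genotype accounted for 64.4% of the variance of NEAT1, treatment for 20.4%, their combination for 4.49%, and 10.8% lay between replicates. For MALAT1 these shares were 41.6%, 40.9%, 4.46% and 12.8%.

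**Figure D1:**
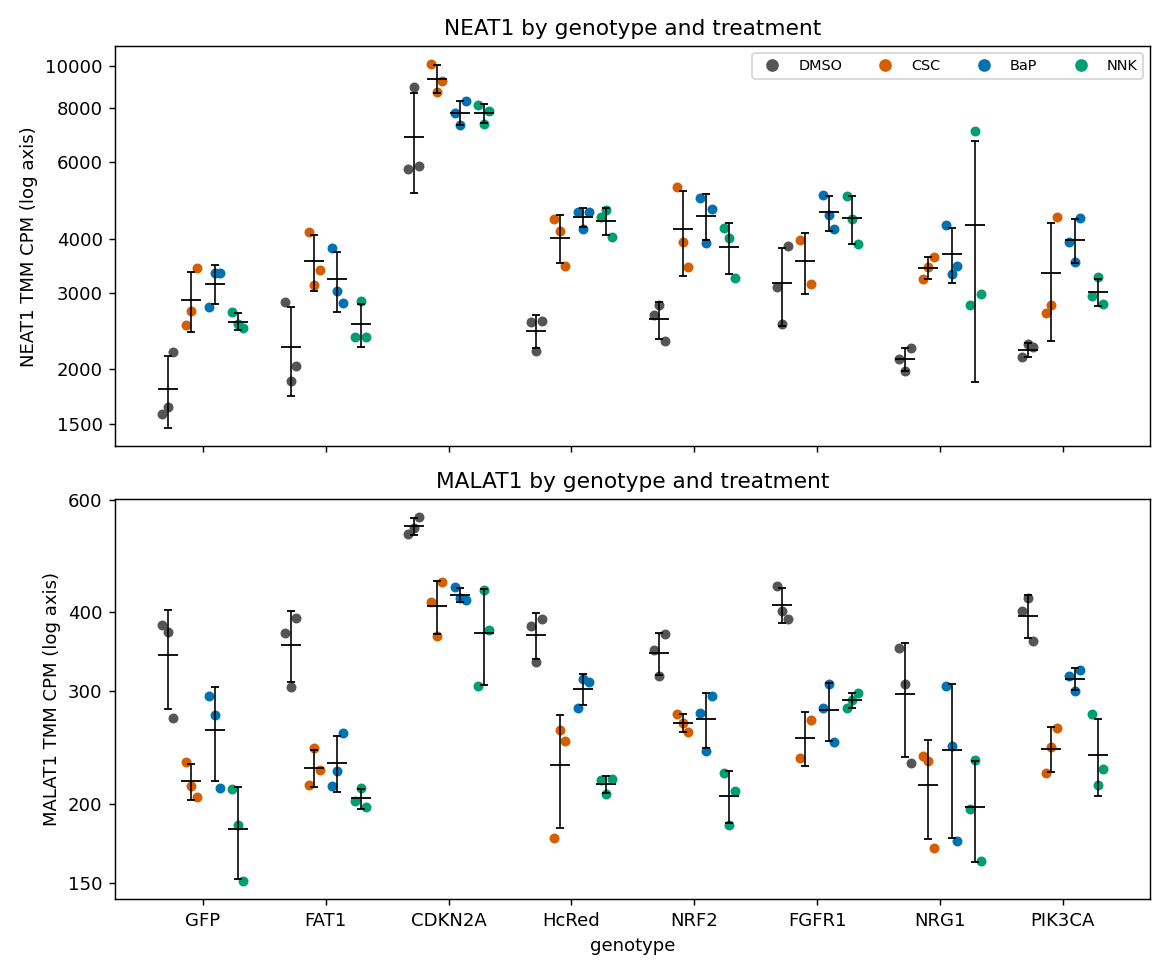
NEAT1 (top) and MALAT1 (bottom) level in TMM-scaled CPM, on log axes, for every sample, by genotype and treatment (colour). Black marks are the mean and SD of each combination. All 12 CDKN2A samples lie above the other lines for NEAT1, except that 1 NRG1 sample under NNK (7087 CPM) exceeds 2 of them, and the mean of MALAT1 is highest under DMSO (grey) in every line.

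In the order of the 32 combinations, the 4 highest NEAT1 levels were those of the CDKN2A line: 9346 ± 693 CPM under CSC, 7788 ± 496 under BaP, 7784 ± 389.9 under NNK and 6870.2 ± 1786 under DMSO (mean ± SD, n = 3 each). The lowest were NRG1 under DMSO (2116 ± 129.9) and GFP under DMSO (1804 ± 339.8). Between these ends the order was mostly not resolved: the step to the next combination exceeded the larger of the 2 SDs of log2 CPM at 3 of 31 places for NEAT1. Those were below CDKN2A under CSC, below CDKN2A under DMSO and below HcRed under DMSO. MALAT1 was highest in the CDKN2A line under DMSO (545 ± 17.5) and lowest in GFP under NNK (182 ± 29.8). Its only resolved step of 31 was that below the CDKN2A line under DMSO.

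The values of each line are given by replicate, in the order DMSO, CSC, BaP and NNK. In HcRed, NEAT1 was at 2578, 2205 and 2581 CPM under DMSO, 4449, 4155 and 3466 under CSC, 4618, 4217 and 4617 under BaP, and 4486, 4651 and 4038 under NNK. MALAT1 in the same samples was at 379.9, 333 and 389.9 CPM, then 177, 261 and 251, then 283, 313 and 311, then 218, 207 and 219. All treated HcRed samples lay above DMSO for NEAT1 and below DMSO for MALAT1. In GFP, the other control line, NEAT1 was at 1576, 1643 and 2195 CPM under DMSO, 2538, 2731 and 3418 under CSC, 2779.8, 3329.8 and 3343 under BaP, and 2706, 2539.8 and 2485 under NNK. MALAT1 in GFP was at 382, 372 and 272 CPM, then 232, 213 and 205, then 295, 276 and 212, then 211, 185 and 151. NEAT1 was again higher in every treated sample, and MALAT1 under BaP overlapped with DMSO through the low DMSO replicate 3.

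In FAT1 knockout cells, which lack a large protocadherin, NEAT1 was at 2853, 1882 and 2038 CPM under DMSO, 4138, 3124 and 3396 under CSC, 3803, 3025 and 2845 under BaP, and 2381, 2867 and 2373 under NNK. MALAT1 was at 371, 304 and 391 CPM, then 214, 244 and 226, then 213, 225 and 258, then 202, 212 and 197. The first DMSO sample was high for NEAT1 and overlapped with BaP and NNK, while MALAT1 fell without overlap. In the CDKN2A knockout, which targets the locus of the cell cycle inhibitors p16INK4a and p14ARF, NEAT1 was at 5799, 8932 and 5879 CPM under DMSO, 10085, 8712 and 9241 under CSC, 7786, 7294 and 8285 under BaP, and 8128, 7360.5 and 7865 under NNK. MALAT1 in this line was at 529, 541 and 564 CPM, then 414, 367 and 445, then 437, 419.7 and 418, then 306, 433 and 374. The second DMSO sample of this line had as much NEAT1 as treated samples, and no such sample was seen for MALAT1.

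Among the overexpressing lines, NRF2 (the oxidative stress factor encoded by NFE2L2) had NEAT1 at 2672, 2817 and 2331 CPM under DMSO, 5272, 3934 and 3451 under CSC, 4961, 3901 and 4686 under BaP, and 4229.7, 4013 and 3250.5 under NNK. MALAT1 in NRF2 was at 348, 317 and 369 CPM, then 276, 267 and 259, then 278, 242 and 295, then 223, 185 and 209. Neither RNA overlapped with DMSO under any treatment in this line. In FGFR1, a growth factor receptor, NEAT1 was at 3095, 2551 and 3838 CPM under DMSO, 3962 and 3146 under CSC, 5050.2, 4532 and 4211 under BaP, and 5018, 4444 and 3895 under NNK. MALAT1 in FGFR1 was at 438, 401 and 389 CPM, then 236 and 271, then 283, 309 and 250.02, then 282, 291 and 298. NEAT1 under CSC overlapped with DMSO here, and every other treated group stood apart from it.

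With NRG1, a ligand of the ERBB receptors, NEAT1 was at 2115, 1986 and 2246 CPM under DMSO, 3231, 3437 and 3624 under CSC, 4309.8, 3315 and 3456 under BaP, and 2808, 7087 and 2976 under NNK. MALAT1 in NRG1 was at 351, 309 and 232 CPM, then 238, 233 and 170.3, then 306, 247 and 175, then 196, 234 and 163. The 7087 CPM of the second NNK sample was the highest NEAT1 value outside the CDKN2A line, and MALAT1 overlapped with DMSO under all 3 treatments. In PIK3CA, the catalytic subunit of a PI3 kinase, NEAT1 was at 2131, 2284 and 2254 CPM under DMSO, 2700.3, 2809.9 and 4498 under CSC, 3936, 3539.6 and 4469.7 under BaP, and 2954, 3263 and 2830.3 under NNK. MALAT1 in PIK3CA was at 401, 420.2 and 360.2 CPM, then 223, 245 and 263, then 317, 301 and 324, then 276, 214 and 226. All treated PIK3CA samples were above DMSO for NEAT1 and below it for MALAT1.

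The first comparison asked how each chemical moved the 2 RNAs across the 8 genotypes. The chemicals went with more NEAT1 and less MALAT1. NEAT1 ranged over 1576, 2307 and 8932 CPM (lowest, median, highest of 24) under DMSO, 2538, 3466 and 10085 under CSC (23 samples), 2779.8, 4214 and 8285 under BaP, and 2373, 3579 and 8128 under NNK. The limma-voom model with genotype gave NEAT1 log2 fold changes of 0.55 ± 0.06 (SE) for CSC, 0.62 ± 0.06 for BaP and 0.47 ± 0.06 for NNK, or 1.46-, 1.53- and 1.39-fold. These are estimates with no test. GC-corrected estimates were 0.64, 0.78 and 0.57.

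MALAT1 ranged over 232, 376 and 564 CPM under DMSO, 170.3, 244 and 445 under CSC, 175, 289 and 437 under BaP, and 151, 216 and 433 under NNK. It fell under CSC by 0.58 on the log2 scale (SE 0.04, limma-voom adjusted p 4.05e-24), under BaP by 0.37 (SE 0.04, limma-voom adjusted p 3.20e-13) and under NNK by 0.66 (SE 0.05, limma-voom adjusted p 7.90e-27). Levels were thus 0.669, 0.772 and 0.632 times those under DMSO. Many genes passed the same threshold of 0.05, namely 55.1% of the 14384 genes fitted for CSC (28.0% higher, 27.1% lower), 51.0% for BaP (26.1% higher, 24.9% lower) and 51.8% for NNK (26.1% higher, 25.7% lower), so being called is common here and the size of the change is given beside it. The fall was smaller but still past the threshold after GC correction: -0.42 for CSC (limma-voom adjusted p 4.20e-18), -0.20 for BaP (2.27e-05) and -0.50 for NNK (9.45e-22). These are bulk samples, in which fewer cells of a type and less RNA per cell cannot be told apart, and all 3 chemicals were compared with the same DMSO samples.

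**Figure D2:**
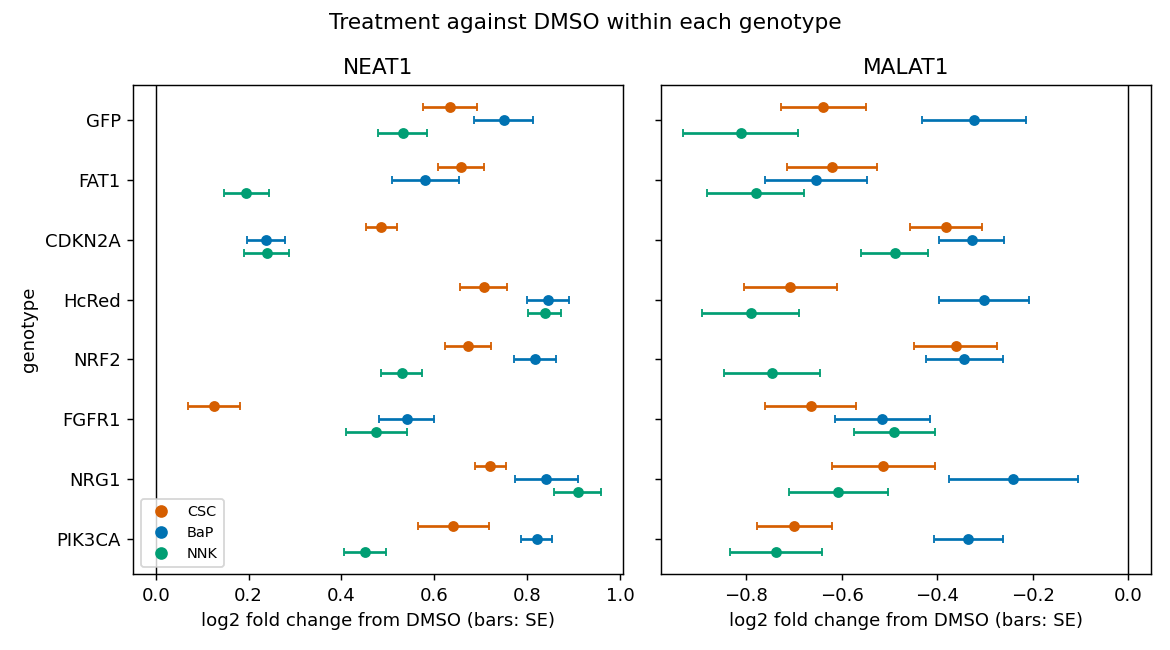
Log2 fold change of NEAT1 (left) and MALAT1 (right) for each treatment (colour) against DMSO within each genotype, with SE bars, from the limma-voom fit of the 2 groups. All 24 NEAT1 estimates are positive, from 0.13 (FGFR1, CSC) to 0.91 (NRG1, NNK), and all 24 MALAT1 estimates are negative, from -0.24 (NRG1, BaP) to -0.81 (GFP, NNK).

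Within single genotypes the directions were the same. NEAT1 estimates were higher than DMSO in 24 of 24 comparisons, with a median of 0.64 and a range of 0.13 to 0.91, and every treated sample exceeded every DMSO sample in 18 of 24. Over all genes, 14.0% of these comparisons were separated in this direction, a share given for scale only, because NEAT1 was chosen for its spread. The 6 that overlapped were BaP and NNK in FAT1, the 3 treatments in CDKN2A, and CSC in FGFR1. In CDKN2A the overlap came from the second DMSO sample, and without it the estimates rose from 0.49, 0.24 and 0.24 to 0.70, 0.42 and 0.41. The largest estimate, NNK in NRG1, rested in part on the second NNK sample and was 0.44 without it. CSC in PIK3CA, at 0.64, was 0.29 without CSC replicate 3, and CSC in FGFR1, at 0.13, was between -0.006 without the second DMSO sample and 0.35 without CSC replicate 3.

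MALAT1 estimates were below DMSO in 24 of 24 comparisons, with a median of -0.56. Every treated sample was below every DMSO sample in 20 of 24 comparisons, against 14.3% over all genes, and MALAT1 fell past the threshold in 23 of 24, against 5.71% of genes called lower. The exception was BaP in NRG1 (-0.24 ± 0.14, limma-voom adjusted p 0.295), where DMSO replicate 3, at 232 CPM, lay within the treated range. With the replicate number as a block it was called (-0.27, limma-voom adjusted p 0.0363). BaP gave smaller estimates (median -0.33 over 8 lines) than CSC (-0.63) and NNK (-0.74), and the difference between chemicals was not tested. The calls for BaP in GFP (-0.32, adjusted p 0.0442) and in HcRed (-0.30, adjusted p 0.0362) were close to the threshold in limma-voom and were lost when single samples were left out (4 and 3 of 6 samples) and with DESeq2. That for CSC in NRG1 was lost without CSC replicate 3 (-0.33). After GC correction MALAT1 was called lower in 14 of 24, against 1.40% of genes.

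Both RNAs were separated from DMSO in opposite directions in 14 of 24 comparisons. No share of other gene pairs was computed for this joint pattern, and NEAT1 was chosen for its spread, so the count is a description only. The ratio of NEAT1 to MALAT1 counts, which does not depend on library scaling, had a median of 6.61 under DMSO (4.12 to 16.5), 15.1 under CSC (10.9 to 25.2), 15.3 under BaP (9.42 to 19.8) and 16.0 under NNK (10.7 to 30.3). The DMSO samples with the highest ratios were those of the CDKN2A line. The treatment differences of MALAT1 did not vary with genotype past the threshold (moderated F of limma-voom over the interaction terms 1.56, p 0.0704, adjusted p 0.407), and 2.20% of genes did.

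The second comparison set each perturbed line against its control. The CDKN2A line stood out for both RNAs. Over its 12 samples NEAT1 ranged over 5799, 7996 and 10085 CPM, and over the 12 GFP samples it ranged over 1576, 2623 and 3418 CPM, so that the lines did not overlap under any treatment. The NEAT1 estimate over all treatments was 1.63 ± 0.09, or 3.09-fold, and the 4 single treatments gave 1.86 (DMSO), 1.72 (CSC), 1.37 (BaP) and 1.57 (NNK). MALAT1 ranged over 306, 426 and 564 CPM in the CDKN2A line and over 151, 223 and 382 CPM in GFP. It rose by 0.81 ± 0.06, or 1.75-fold (limma-voom adjusted p 2.24e-25), where 58.7% of genes were called (29.9% higher, 28.8% lower). Within single treatments MALAT1 rose in the CDKN2A line 4 of 4 times with no overlap, by 0.69, 0.93, 0.69 and 1.03 under DMSO, CSC, BaP and NNK, against 21.6% of genes separated in this direction. CDKN2A was knocked out in 1 line, so the knockout and any other property of that line cannot be told apart.

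**Figure D3:**
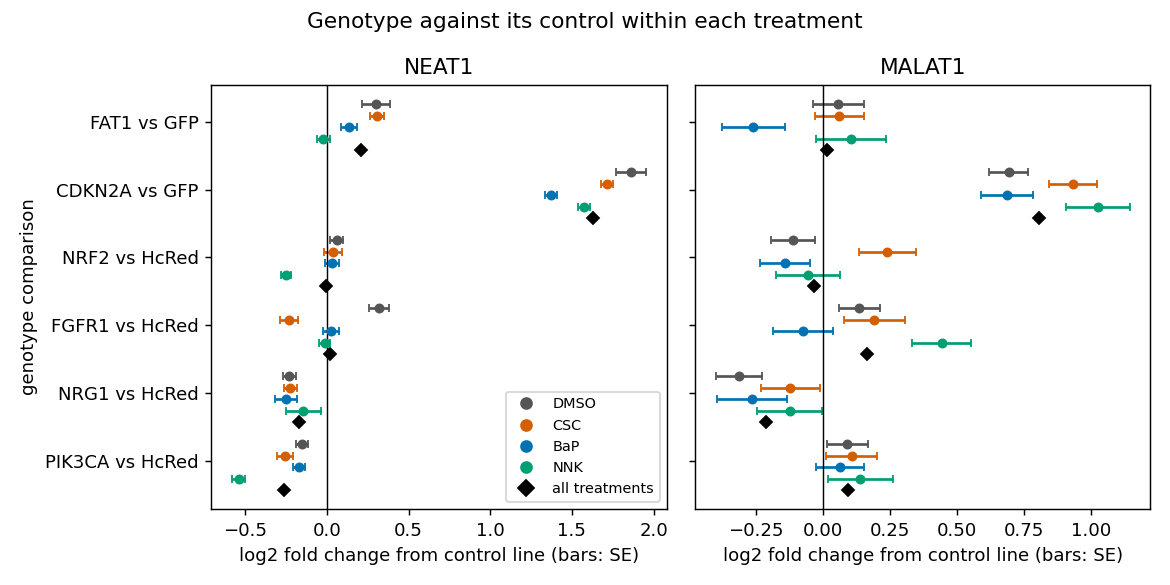
Log2 fold change of NEAT1 (left) and MALAT1 (right) for each perturbed line against its control under each treatment (coloured circles, SE bars) and over all treatments (black diamonds). The CDKN2A estimates lie between 1.37 and 1.86 for NEAT1 and between 0.69 and 1.03 for MALAT1, and the other lines lie near 0 by comparison.

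The other 5 lines stayed close to their controls. NEAT1 over all treatments was 0.21 ± 0.10 in FAT1, -0.01 ± 0.09 in NRF2, 0.02 ± 0.09 in FGFR1, -0.17 ± 0.09 in NRG1 and -0.27 ± 0.08 in PIK3CA. The estimates of NRF2 and FGFR1 changed sign with the scaling or filter. Within single treatments NEAT1 separated downward from its control in 1 of these 20 comparisons and upward in none. That 1 was PIK3CA under NNK, where 2954, 3263 and 2830.3 CPM lay below 4486, 4651 and 4038 CPM in HcRed (estimate -0.54 ± 0.04). Over all genes 12.9% of the 24 genotype comparisons, those of CDKN2A included, were separated downward. The 3 other PIK3CA estimates and the 4 of NRG1 were also negative, from -0.25 to -0.16 and from -0.25 to -0.15.

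MALAT1 fell in NRG1 by 0.21 (SE 0.06, limma-voom adjusted p 0.0143), where 12.5% of genes were called. This call was lost when DMSO replicate 3 of NRG1, at 232 CPM, was left out (-0.17). MALAT1 was not past the threshold in FAT1 (0.01 ± 0.06, limma-voom adjusted p 0.875), NRF2 (-0.03 ± 0.06, 0.765), FGFR1 (0.16 ± 0.06, 0.0600) or PIK3CA (0.10 ± 0.06, 0.250), where 49.1%, 22.0%, 14.2% and 27.9% of genes were called. Their 95% intervals, 0.926- to 1.10-fold, 0.897- to 1.06-fold, 1.03- to 1.22-fold and 0.985- to 1.16-fold, give the sizes that remain possible. The FAT1 estimate became 0.15 and was called after GC correction. That of FGFR1 was called with the replicate number as a block (0.18, limma-voom adjusted p 0.0407) and, at 0.17 each, with DESeq2 size factors, library size only or a mean count of at least 10. Over all 24 genotype comparisons within single treatments, those of CDKN2A included, 12.2% of genes were called. MALAT1 was called in 2 of the 20 comparisons without CDKN2A, near that share. It was higher in FGFR1 under NNK (0.44 ± 0.11, limma-voom adjusted p 0.00735, 282 to 298 against 207 to 219 CPM) and lower in NRG1 under DMSO (-0.31 ± 0.09, limma-voom adjusted p 0.0264, with overlapping samples). DESeq2 called neither, the first was also lost without the second NNK sample of HcRed (0.41), and the second without DMSO replicate 3 of NRG1 (-0.16).

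**Figure D4:**
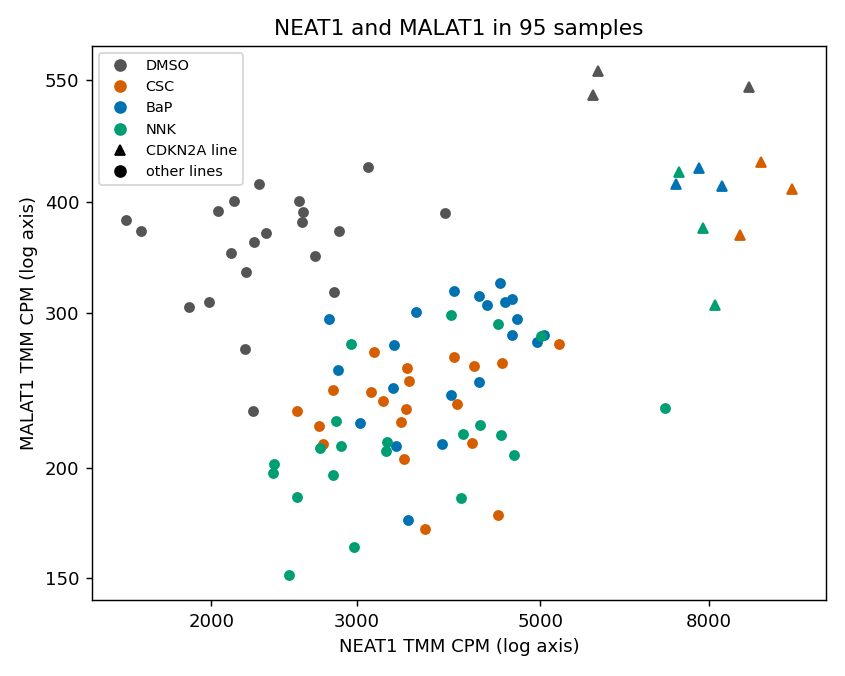
NEAT1 (horizontal) and MALAT1 (vertical) in TMM-scaled CPM, on log axes, for the 95 samples, with treatment as colour and the CDKN2A line as triangles. In the other lines most DMSO samples (grey) lie above and to the left of treated samples, and the 12 CDKN2A samples lie to the upper right.

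Across the 95 samples, log2 CPM of NEAT1 and MALAT1 had a Pearson r of 0.27 and a Spearman rho of 0.16, and the samples fell into the groups seen in the scatter of both RNAs. The value depended on which samples were taken: r was -0.25 in the 83 samples without the CDKN2A line and 0.69 in the 24 DMSO samples, which include that line. Within combinations, as deviations from their means, r was 0.056. These are descriptions over samples that share control lines, treatments and depth.

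Genes that act with NEAT1 and MALAT1, other noncoding RNAs and p53 target genes were followed in 8 lists. Their counts are read against the shares of all genes called under CSC, BaP and NNK (55.1%, 51.0% and 51.8%, or 33.1%, 24.4% and 17.4% after GC correction). Of the 9 core paraspeckle proteins, 7 were called under CSC (3 higher, 4 lower), 5 under BaP (1 higher, 4 lower) and 6 under NNK (3 higher, 3 lower), the last 2 of which are near those shares. Their median log2 fold changes were -0.03, 0.03 and 0.05, beside 0.00, 0.01 and 0.00 over all genes. SFPQ, which is required for long NEAT1, fell under all 3 chemicals by 0.45, 0.33 and 0.25 (SE 0.03 each, limma-voom adjusted p 1.24e-28, 2.23e-19 and 4.90e-13), and it was still called lower after GC correction (-0.34, -0.22 and -0.13). HNRNPH3 fell by 0.36, 0.34 and 0.36, but was not past the threshold after GC correction (-0.10, -0.12 and -0.10). NONO, the partner of SFPQ, fell under CSC (-0.17) and BaP (-0.10, and 0.00 after GC correction) and was at 0.05 under NNK, short of the threshold. PSPC1, related to both, was at 0.15 under CSC, just past the threshold, at 0.09 under BaP, not past it, and near 0 under NNK with a sign that changed with the scaling. After GC correction PSPC1 was called higher under CSC (0.30) and BaP (0.23), and NONO under NNK (0.12). HNRNPK fell by 0.10, 0.15 and 0.15, SMARCA4 rose by 0.08, 0.08 and 0.24, and RBM14 rose by 0.24 under CSC and 0.16 under NNK. After GC correction the signs of HNRNPK and SMARCA4 turned under all 3 chemicals, with HNRNPK called higher under CSC (0.09) and SMARCA4 lower under CSC (-0.23) and BaP (-0.14), and RBM14 was not called. DAZAP1 rose under NNK (0.17) and was called lower under all 3 chemicals after GC correction (-0.26, -0.29 and -0.17).

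Of 32 other paraspeckle proteins, 24, 23 and 23 were called under CSC, BaP and NNK, of which 19, 17 and 16 were lower, beside 27.1%, 24.9% and 25.7% of all genes called lower. Their medians were -0.24, -0.14 and -0.16. MATR3, a nuclear matrix protein, fell by 0.54 under CSC, and HNRNPR fell by 0.46 under CSC and 0.44 under BaP. AHDC1, a DNA-binding protein, rose by 0.74, 0.56 and 0.53, but after GC correction it was called under CSC (0.24) and not under BaP (0.09) or NNK (0.03). Fewer members passed after GC correction: 11, 12 and 7, of which 10, 9 and 6 were lower, beside 17.0%, 11.7% and 7.25% of all genes called lower.

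Nuclear speckle genes, the protein partners of MALAT1, were mostly lower before GC correction, but the SR factors among them were not mostly lower after it. Of 12 SR splicing factors, 11, 8 and 7 were called under CSC, BaP and NNK (9, 7 and 6 lower), with medians of -0.24, -0.11 and -0.10, and the counts under BaP and NNK are close to the 51.0% and 51.8% of all genes. SRSF2 fell by 0.37, 0.28 and 0.26, and was still called after GC correction (-0.31, -0.22 and -0.16), while SRSF9 rose under CSC by 0.33. Of 22 fitted speckle scaffold proteins and kinases, 19 were called under each chemical (15, 14 and 14 lower), with medians of -0.23, -0.17 and -0.15. The kinases CLK1 and CLK4, which phosphorylate SR proteins, fell most: CLK1 by 0.80, 0.75 and 0.82 (SE 0.06 each) and CLK4 by 0.81, 0.66 and 0.72 (SE 0.09 each). CLK1 stayed past the threshold after GC correction at -0.53, -0.53 and -0.55. PNN and LUC7L3, splicing proteins of the speckle, fell by 0.57, 0.44 and 0.40 and by 0.56, 0.43 and 0.58. After GC correction 6, 6 and 5 SR factors were called (3, 4 and 4 higher, 3, 2 and 1 lower), with medians of -0.01, 0.06 and 0.08. Of the scaffold proteins and kinases 19, 13 and 9 were then called (16, 8 and 6 lower). Of all genes 33.1%, 24.4% and 17.4% were called in that fit, and 17.0%, 11.7% and 7.25% were called lower.

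Of 12 fitted genes for RNase P, RNase Z and triple helix factors, which make and hold the 3′ ends shown above, 5 were called under each chemical, a smaller share than the 55.1%, 51.0% and 51.8% of all genes. RPPH1, the RNA of RNase P, rose by 1.0, 0.89 and 0.44 (SE 0.06 each, limma-voom adjusted p 8.94e-34, 4.80e-28 and 1.59e-09). POP7, a protein of the same enzyme, rose by 0.66, 0.39 and 0.42, of which only the call under CSC was left after GC correction (0.29, 0.11 and 0.21). RPP38, another, fell under CSC (-0.27) and BaP (-0.33). TRNT1, which adds CCA to tRNA ends, fell under CSC (-0.48) and NNK (-0.52). ELAC2, the RNase Z that trims the tRNA-like piece, rose by 0.17 under BaP and 0.14 under NNK, and was near 0 after GC correction (-0.01 and -0.05). RPPH1 had no GC value here and could not be corrected. Of the other 11 genes, 6, 3 and 2 were called after correction.

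Of 25 fitted other long noncoding RNAs, 9, 8 and 12 were called, of which 5, 3 and 2 were higher, and these too are smaller shares than the 55.1%, 51.0% and 51.8% of all genes. LINC-PINT, a p53-induced RNA, rose by 0.50, 0.50 and 0.45, and OIP5-AS1 fell under CSC and BaP by 0.32 each. SNHG12, SNHG6 and SNHG5, host genes of small nucleolar RNAs, fell under NNK by 0.55, 0.42 and 0.34. After GC correction SNHG12 (-0.63) and SNHG5 (-0.18) were still called and SNHG6 (-0.17) was not. Structured small noncoding RNAs, which are also untailed, were higher under CSC (6 of 6 called, all higher, median 1.08) and BaP (5 of 6, all higher, median 0.71) but not under NNK (4 called, 2 higher and 2 lower, median 0.01). RMRP, the RNA of RNase MRP, rose by 1.40 under CSC and 0.72 under BaP, and SCARNA2 rose by 1.23, 0.72 and 0.23. RMRP was at 0.78 and 0.31 after GC correction. The GC-corrected fit held 4 of the 6, without SCARNA2 and RNU12, which had no GC value, and 4, 2 and 1 of these 4 were called, all higher.

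Of 15 p53 target genes, 12, 9 and 9 were called, with 8, 7 and 6 higher and medians of 0.29, 0.19 and 0.18, beside 55.1%, 51.0% and 51.8% of all genes called and 28.0%, 26.1% and 26.1% called higher. CDKN1A, the p21 inhibitor of cyclin-dependent kinases, rose by 0.99, 0.97 and 0.68 (SE 0.05 each), and by 0.68, 0.69 and 0.42 after GC correction. PLK3, a stress kinase, rose by 1.0, 0.63 and 0.66, and after GC correction it was called under CSC (0.60) and not under BaP (0.26) or NNK (0.32). BTG2, an antiproliferative gene, fell under NNK by 0.45. After GC correction 5 of 15 were called under each chemical, with 4, 5 and 4 higher and medians of 0.00, 0.08 and 0.09.

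**Figure D5:**
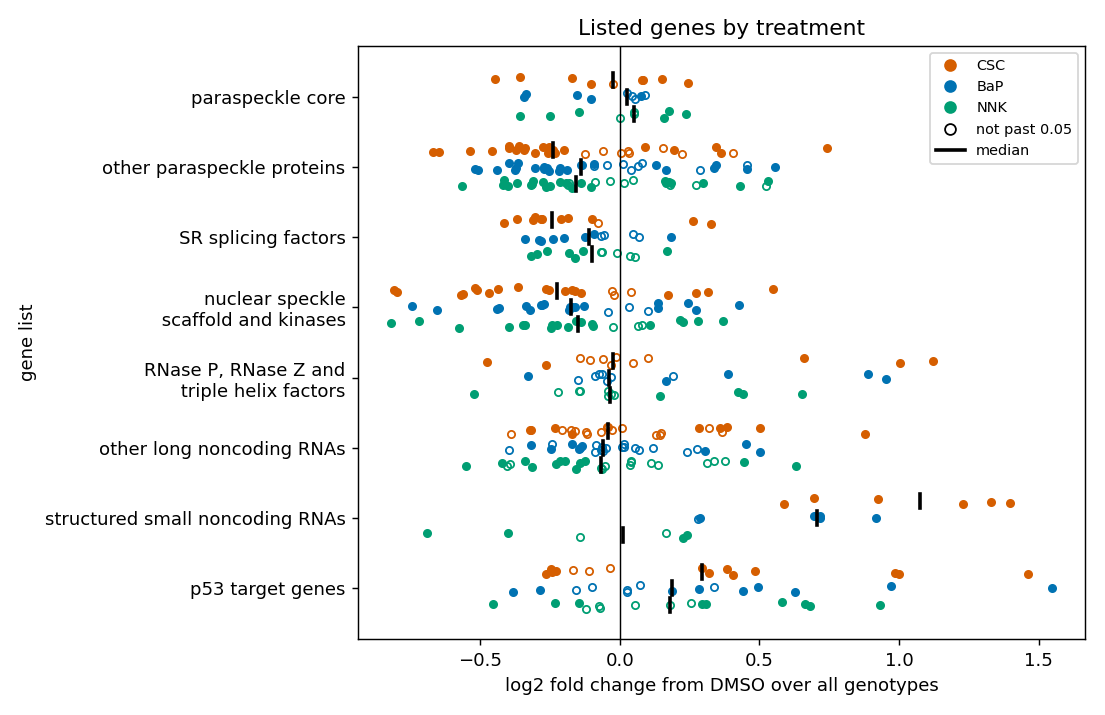
Log2 fold change from DMSO over all genotypes for the fitted genes of 8 lists, by treatment (colour). Filled points passed the adjusted p of 0.05, open points did not, and black bars are list medians. Speckle and other paraspeckle genes lie mostly left of 0, and structured small noncoding RNAs lie right of 0 under CSC and BaP.

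In the CDKN2A line, where both RNAs were higher than in GFP, 7 of 9 core paraspeckle genes were called (5 higher, 2 lower), where 58.7% of all genes were called (59.8% after GC correction). The genes named from the other lists are those with the largest estimates among called members with a mean count of at least 10. PSPC1 fell by 0.85 ± 0.10 (limma-voom adjusted p 8.63e-13), whereas DAZAP1 rose by 0.49, RBM14 by 0.34, SFPQ by 0.13 and SMARCA4 by 0.12, the last of which was -0.04 after GC correction. HNRNPK fell by 0.12. Of the other paraspeckle proteins 18 of 32 were called (7 higher), close to the share of all genes, among them SS18L1 (-1.02) and the cold-shock RNA-binding protein RBM3 (-0.96). Of SR factors 11 of 12 were called (5 higher), with SRSF8 at 0.83 and TRA2B at 0.43, and of speckle scaffold proteins and kinases 15 of 22 (5 higher), with the SR protein kinase SRPK2 at -0.86 and the cyclin CCNL1 at 0.71. In the RNase P list 6 of 12 were called (2 higher), POP1 at 0.82 and TRNT1 at -0.72. Other long noncoding RNAs were called in 16 of 25 cases (11 higher), among them SNHG8 (1.40) and DANCR (0.996). Of structured small RNAs 1 of 6 was called, RNU4ATAC of the minor spliceosome at 0.66. Of p53 targets 9 of 15 were called (7 higher, 2 lower), close to the share of all genes, among them TP53I3 (1.34) and PLK3 (1.14). The median of this list was 0.04 beside 0.00 over all genes. After GC correction 10 of the 15 were called (6 higher, 4 lower), with a median of -0.06. Genes with fewer counts, picked out after their values were seen, were also far from GFP: RUNX3 of the paraspeckle list (3.90-fold), the noncoding RNA CYTOR (2.60-fold) and the p53 target GDF15 (2.68-fold) were called from 0 to 6, 3 to 12 and 3 to 27 counts a sample, against 0 to 2, 0 to 10 and 1 to 10 in GFP. The noncoding RNA H19 had 26 to 107 counts in the CDKN2A line and 0 to 4 in GFP (estimate 5.70, limma-voom adjusted p 2.92e-29).

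Most genes around the pair on chromosome 11 were higher under the chemicals, the direction of NEAT1. Of 22 other counted genes within 250 kb, 18 were fitted, and 15 rose under CSC, 17 under BaP and 16 under NNK, with none lower and medians of 0.54, 0.56 and 0.47, where 28.0%, 26.1% and 26.1% of all genes were called higher. FRMD8, upstream of NEAT1, rose by 0.67, 0.58 and 0.47, and LTBP3, which binds latent TGF-beta, by 1.22, 1.02 and 0.89. After GC correction LTBP3 was still called under all 3 chemicals (0.77, 0.61 and 0.43), and FRMD8 under CSC (0.24) and BaP (0.18) but not NNK (0.09). All 18 have a GC content above the median of fitted genes, unlike NEAT1 and MALAT1. After GC correction 7, 6 and 2 of the 18 were called (5, 6 and 2 higher), with medians of 0.10, 0.18 and 0.11, and 16.1%, 12.7% and 10.1% of all genes were called higher. In the CDKN2A line 15 of 18 were called, 13 higher, with a median of 0.47, where 58.7% of all genes were called and 29.9% called higher. With GC correction 12 of 18 were called there (9 higher, 3 lower), with a median of 0.26, where 59.8% of all genes were called.

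Among the same 5042 genes, the 10 most like NEAT1 over the 95 samples were TERC (Pearson r 0.83), SDC1 (0.76), IRAK1 (0.73), LRRC41 (0.73), FTL (0.73), LRP5 (0.73), TNK2 (0.73), USP22 (0.72), TSC22D2 (0.72) and PSMD3 (0.72). TERC is the RNA of telomerase, SDC1 is a cell surface proteoglycan, and FTL is the light chain of ferritin. The least like were RAB14 (-0.83), XPO4 (-0.81), CKAP2 (-0.81), FAM120A (-0.80) and CAST (-0.80). Within combinations these 15 correlations shrank to between -0.29 and 0.19. Without the CDKN2A line, r ran from 0.22 (USP22) to 0.67 (LRRC41) in the first set and from -0.61 to -0.57 in the second. After GC correction r ran from 0.42 (TNK2) to 0.76 (FTL) and from -0.74 to -0.64. GC content ran from 43.6% to 66.7% in the first set and from 36.4% to 45.6% in the second.

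The 10 genes most like MALAT1 were HNRNPA2B1 (0.85), HDAC2 (0.80), U2SURP (0.76), FXR1 (0.76), PPP1CB (0.76), BIRC2 (0.76), SMC4 (0.75), HSPA4L (0.75), PSMA4 (0.73) and SEC62 (0.73). HNRNPA2B1 encodes an RNA-binding protein of the nucleus and had the highest r within combinations, 0.66. For the other genes of this set, r within combinations ran from 0.09 (PPP1CB) to 0.49 (PSMA4). The least like were PIEZO1 (-0.76), PDXK (-0.76), GNAI2 (-0.75), CDKN2A (-0.75), itself the gene knocked out in 1 line, and ATP13A1 (-0.74). GC content ran from 36.1% to 42.6% in the first set and from 56.0% to 62.3% in the second, and after GC correction the r of HNRNPA2B1 was 0.74 and that of PIEZO1 -0.59.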

How the data were processed

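The authors prepared SFL libraries from total RNA, trimmed reads with cutadapt 1.12, checked them with FastQC 0.11.5, aligned them to hg19 with STAR 2.5.2b and counted RefSeq genes with featureCounts. They deposited 1 table of raw counts per sample, whole numbers with no normalization. The count per gene is the only unit used. The counted reads of a sample set its precision.

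Counts were scaled by TMM (edgeR 4.0.16, R 4.3.3) and tested with limma 3.58.1 on voom-transformed counts, 2-sided, for genes with a mean count above 1, with Benjamini-Hochberg adjustment over all genes and a threshold of 0.05. Comparisons over all genotypes or treatments used an additive model of 95 samples, and the 48 pairwise comparisons used their own samples. Correlations of levels used log2 CPM (prior count 2). The GC-corrected fit removed a loess trend (span 0.3) with GC content and exon length in each sample, for the 93.8% of fitted genes with both values. Alternatives were DESeq2 1.42.0, the quasi-likelihood test of edgeR, DESeq2 size factors, library size only, other count filters, a replicate block and leaving out each sample or genotype. The fits were tested on simulated data.

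The genes, lists and tests were chosen with earlier results of these data known. Named genes are NEAT1, MALAT1, the perturbed genes, the core paraspeckle genes, up to 4 listed genes per treatment and 2 for CDKN2A by size among those past 0.05 whose mean count reached 10, the most and least correlated genes, and neighbours within 250 kb. Sequences come from the GRCh37 genome and coordinates, lengths and GC content from its GENCODE annotation. Some listed genes are not reported here by name. Same-numbered replicates were not paired by the labels.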

Additional observations from a re-analysis of the deposited data

How the results depend on the processing

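Values were called unchanged by set rules. MALAT1 and other tested genes had to keep their sign and their side of the threshold, and NEAT1 its sign within a set shift. Counts of called genes and correlations had to stay within set margins. Over the alternatives that left out no sample, 502 of 544 summary values were unchanged, as were 6613 of 6653 with a sample or a genotype left out. Of further values, for named genes and single comparisons, 1468 of 1628 were unchanged over the alternatives and 23 changed sign. The GC-corrected fit moved most of the rest of the summary values. It left 4463, 3291 and 2342 genes called under CSC, BaP and NNK, and MALAT1 called in 14 of 24 treatment comparisons. With it 11, 12 and 7 other paraspeckle proteins, 5, 5 and 5 p53 targets and 7, 6 and 2 neighbours were called under CSC, BaP and NNK, 6 SR factors under CSC, and 9 speckle scaffold proteins and kinases under NNK. Under BaP and NNK it left 3 and 2 genes of the RNase P list, 5 and 6 other long noncoding RNAs, and 2 and 1 structured RNAs, but it held only 11 of the 12 RNase P genes and 4 of the 6 structured RNAs, so part of these falls is missing members. For CDKN2A, 3 structured RNAs were called with it and 2 with edgeR. It gave MALAT1 0.15 in FAT1 (called) and 0.019 in NRF2. With every gene that had a read, 12546 genes were called under BaP and 12582 under NNK.

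The NEAT1 estimate of NRF2 was positive with DESeq2 (0.0043), DESeq2 size factors (0.012), library size only (0.014), a mean count of at least 10 (0.0056), all genes with a read (0.029) and GC correction (0.033), and that of FGFR1 was negative with all genes with a read (-0.061) and GC correction (-0.0074). MALAT1 in FGFR1 passed the threshold with DESeq2 size factors (0.17), library size only (0.17) and a mean count of at least 10 (0.17). The correlation of NEAT1 with MALAT1 was 0.056 within combinations and, chosen after seeing the data, -0.25 in the other 7 lines and 0.69 under DMSO.

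With GC correction the sign turned for DAZAP1 (CSC -0.26, BaP -0.29, NNK -0.17), HNRNPK (0.091, 0.028, 0.069), SMARCA4 (-0.23, -0.14, -0.082, and -0.045 in CDKN2A), RBM14 (BaP -0.11, NNK -0.00026), NONO (BaP 0.0038), ELAC2 (BaP -0.013, NNK -0.048), SNHG7 (CSC -0.021), SRSF11 (NNK 0.0010), TRA2A (NNK 0.058) and PSPC1 (NNK 0.18). PSPC1 under NNK also turned with DESeq2 size factors (0.0022), library size only (0.014) and a mean count of at least 10 (0.010). The cause was not tested.

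Same-numbered samples did not deviate together (mean r 0.00478, against -0.00234 for other pairs). With the replicate block MALAT1 in FGFR1 was called (0.18), BaP in NRG1 was called (-0.27), BaP in HcRed was lost (-0.29), and PSPC1 under NNK was 0.0035.

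Leaving out single samples or genotypes gave MALAT1 -0.046 to 0.052 in FAT1, 0.12 to 0.19 in FGFR1 and -0.26 to -0.17 in NRG1, and NEAT1 -0.021 to 0.11 in FGFR1, -0.041 to 0.025 in NRF2 and -0.0060 to 0.35 for CSC in FGFR1. Called long noncoding RNAs under BaP ran from 4 to 9 and structured RNAs in CDKN2A from 1 to 2. DAZAP1 under BaP ran from -0.00090 to 0.046 and PSPC1 under NNK from -0.068 to 0.027. MALAT1 had 52 to 661 counts a sample, which limits its precision.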
